A study of Mus musculus with 2 samples.

Results

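Mitochondrial ribosomal proteins build the ribosome that works inside mitochondria. This report covers the genes whose symbol starts with Mrpl or Mrps followed by a number, which are the genes named for the large and the small subunit of that ribosome. The array held 76 such genes, 47 of the large and 29 of the small subunit, out of 18194 genes with a probe set of their own. Each gene was represented by its probe set of highest mean log2 signal. A further 4 probe sets were annotated to a gene of this name together with another gene and were not used, which left 2 genes of the series of names, Mrpl30 and Mrpl53, without a value.

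The cells were thioglycolate-elicited peritoneal macrophages, inflammatory cells recruited to the abdominal cavity by an irritant, from wild type male C57BL6 mice aged 8 weeks. The mice had been given 0.2 ml of 10% thioglycolate medium 1 week before lavage, and the cells were cultured in medium with 10% serum to 80% confluence. The control sample then had 12 h without addition, and the other sample 12 h with 100 ng/ml CSF1 (macrophage colony-stimulating factor), the growth factor of macrophages. RNA of each was hybridised to its own Affymetrix mouse genome array, so that there is 1 array a group. No test between the groups could be run, and every difference below is a difference between these 2 arrays with no replicate check; the number of arrays limits its precision. The labels do not say whether animals were pooled, or whether the arrays share animals.

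The mitochondrial ribosome translates only the messages of mitochondrial DNA, which encode core subunits of the respiratory chain and ATP synthase. Its RNAs come from mitochondrial DNA, while all its proteins are encoded in the nucleus, made in the cytosol and imported. Many of them have a counterpart in the bacterial ribosome, and others occur only in mitochondria. The cytosolic ribosome has a separate set of genes, named Rpl and Rps.

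The stretches just upstream of the transcription start are shown for 6 of these genes. They include the 3 highest ratios with a promoter entry and the lowest ratio. They also include 2 further genes with a recognition sequence of the ETS family (to which GABP, a regulator of nuclear genes for mitochondria, belongs). Each line gives the 100 bases before the start in RefSeq's annotation of build GRCm38.p6, read 5′ to 3′ on the strand of the gene. Capitals mark matches to the ETS sequence CCGGAAG or to the recognition sequence of the transcription factor NRF1 (GCGCA, any base, GCGC), on either strand.
Mrps18b (chr17:35916441-35916540, minus strand): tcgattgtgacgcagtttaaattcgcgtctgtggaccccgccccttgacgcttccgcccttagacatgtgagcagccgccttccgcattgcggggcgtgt
Mrps6 (chr16:92058236-92058335, plus strand): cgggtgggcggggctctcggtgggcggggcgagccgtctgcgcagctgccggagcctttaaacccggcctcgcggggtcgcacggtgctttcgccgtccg
Mrpl9 (chr3:94443236-94443335, plus strand): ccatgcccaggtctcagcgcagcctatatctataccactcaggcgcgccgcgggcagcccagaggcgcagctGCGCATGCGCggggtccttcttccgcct
Mrps26 (chr2:130563657-130563756, plus strand): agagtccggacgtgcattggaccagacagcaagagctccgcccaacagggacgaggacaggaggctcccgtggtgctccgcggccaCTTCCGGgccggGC
Mrpl43 (chr19:45006443-45006542, minus strand): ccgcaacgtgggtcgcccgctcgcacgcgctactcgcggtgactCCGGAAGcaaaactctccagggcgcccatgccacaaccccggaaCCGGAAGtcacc
Mrpl33 (chr5:31613851-31613950, plus strand): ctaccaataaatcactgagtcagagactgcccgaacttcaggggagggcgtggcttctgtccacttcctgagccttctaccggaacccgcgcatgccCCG
The capitals at the right end of the Mrps26 and Mrpl33 lines belong to matches that run on past the start. The Mrpl43 stretch holds 2 ETS matches and the Mrpl9 stretch 1 NRF1 match, and the stretches of Mrps18b and Mrps6 hold neither sequence. Mrps18b has an ETS match 44 bases after the start, outside the stretch shown.

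Most mitochondrial ribosomal protein genes were slightly higher on the CSF1 array. The median log2 ratio, CSF1 over control, was 0.20 for the 76 genes, or 1.15-fold, and their ratios ran from -0.30 to 0.66. Of the 76 genes, 66 had a ratio above 0 and 10 below, while 50.2% of all 10770 measured genes were above 0 and the median of all measured genes was 0.00. A gene counted as measured when its signal was above 149 units, a background level taken from genes of other tissues, on at least 1 array; all 76 genes were above it on both arrays, with signals between 278 and 6677 units. In the same range of signal, 53% of 7013 measured genes were above 0, with a median of 0.02. When each gene was averaged over its probe sets, those below background included, the median of the 76 genes was 0.10. Probe sets below background on both arrays entered that mean with a ratio of 0, which draws it towards 0. Averaged over measured probe sets only, the median of the 76 genes stood 0.18 above that of all measured genes.

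The differences were small for single genes and alike across the group. Only 2 of the 76 genes, both of the small subunit, were at least 1.5-fold higher, where 5.66% of all measured genes were, and none was 1.5-fold lower, where 5.08% of all measured genes were. None was 2-fold higher or lower, where 0.873% and 0.65% of all measured genes were. The ratios had an SD of 0.17 over the 76 genes, against 0.37 over all measured genes. This narrow spread is not particular to them. Nuclear genes for respiratory chain and ATP synthase subunits had an SD of 0.16, and citrate cycle genes 0.13. Probe sets of the same gene disagreed with a pooled SD of 0.23 (log2), the only error that these arrays give, and it covers neither cultures nor animals. By that measure 32 genes lay above 0.23, 1 lay below -0.23 and 43 lay between. The share of all measured genes past these limits was not computed. Their quartiles were -0.20 and 0.22, and 26.5% of them were at or above the median of the 76 genes. A ratio above 0.23 is thus not rare among all genes.

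**Figure D1:**
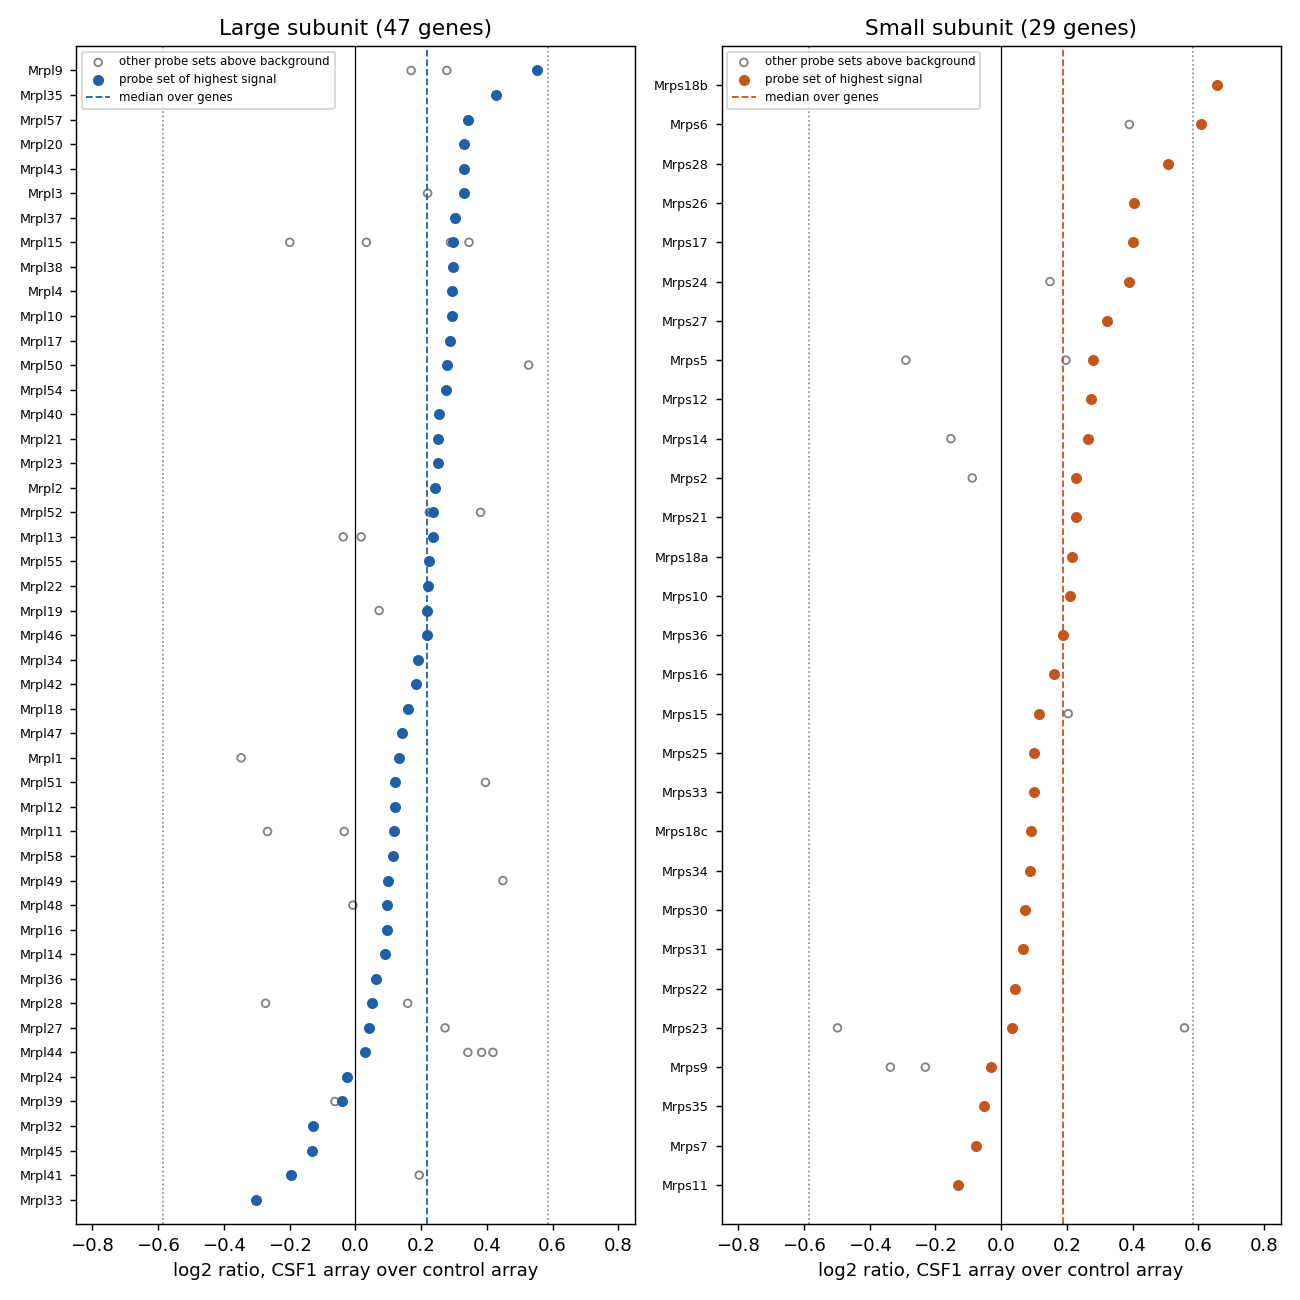
Log2 ratio, CSF1 over control (horizontal axis) for each mitochondrial ribosomal protein gene (vertical axis), large subunit left and small subunit right. Filled points are the probe set of highest signal, open points the other probe sets above background on both arrays, dashed lines the medians of 0.22 and 0.19, and dotted lines 1.5-fold; 66 of 76 filled points lie right of 0.

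The subunits were compared by their medians. The median was 0.22 over the 47 large subunit genes and 0.19 over the 29 small subunit genes, a difference of 0.03 that was not tested. Above 0 were 41 of 47 large and 25 of 29 small subunit genes. The small subunit held the higher extremes, up to 0.66 against 0.55, and the large subunit the lowest, at -0.30 against -0.13. Some probe sets have names that mark them as possibly shared with other transcripts, of the same gene or another. On the probe sets without such names, the order turned, with a median of 0.19 for the large and 0.21 for the small subunit. With the mean of the measured probe sets of each gene, the medians were 0.22 for the large and 0.10 for the small subunit, so that the size and the order of the difference depend on the choice of probe set. Despite their names, Mrps30 and Mrps18a sit in the large subunit in structures of the mammalian ribosome, and moving them left the medians at 0.22 and 0.19. Mrps36, which is better known as a component of the oxoglutarate dehydrogenase complex than of the ribosome, had a ratio of 0.19.

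Among small subunit genes, Mrps18b had the highest ratio. It encodes a mitochondrial member of the S18 protein family, of which mammals have 3. Its signal was 1404 units without and 2214 units with CSF1, 1.58-fold higher, measured by a single probe set. The name of that probe set ends in _a_at, an ending counted here among those that mark possible sharing with other transcripts. The other members of the family had smaller ratios: Mrps18a had 1696 and 1972 units, a ratio of 0.22, and Mrps18c had 3094 and 3296 units, a ratio of 0.09.

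Mrps6, the counterpart of a bacterial protein of the small subunit platform, was 1.52-fold higher, with 692 units without and 1055 units with CSF1. Its 2 measured probe sets averaged 0.50 ± 0.15 (log2 ratio, SD over the probe sets). Mrps28, a small subunit protein, had 1876 units and 2668 units, a ratio of 0.51, or 1.42-fold. The next gene, Mrps26, a protein that bacteria lack, had a ratio of 0.40 with 1065 and 1409 units, and the other probe set of Mrps6 had 0.39.

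Mrps17, which binds the ribosomal RNA of the small subunit, had 2021 units without and 2671 units with CSF1, a ratio of 0.40. Mrps24 had 1578 and 2067 units, a ratio of 0.39, and its 2 probe sets had a mean of 0.27 ± 0.17. Mrps27, an RNA-binding protein of the pentatricopeptide repeat class, had 278 and 348 units, a ratio of 0.32. All of these were higher on the CSF1 array by between 1.25-fold and 1.32-fold. Mrps12, a protein of the decoding site, where codon and anticodon meet, had 1218 and 1474 units, a ratio of 0.27.

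At the other end of the small subunit, 4 genes were lower on the CSF1 array. Mrps11, a platform protein, had 669 units without and 611 units with CSF1, a ratio of -0.13. Mrps7, which binds ribosomal RNA in the head of the subunit, had 1170 and 1111 units, a ratio of -0.07. Mrps35 had 645 and 623 units, at -0.05, and Mrps9 765 and 749 units, at -0.03. The 3 measured probe sets of Mrps9 were all below 0, with a mean of -0.20 ± 0.16. Near 0 were also Mrps23, with 1166 and 1194 units (0.03), and Mrps22, with 2005 and 2065 units (0.04). None of these 6 differences exceeds the pooled probe set SD.

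The proteins of the head of the small subunit (Mrps7, Mrps9, Mrps10, Mrps14, Mrps24, Mrps31, Mrps33 and Mrps35) had a median of 0.08, with 5 of 8 above 0. Those of its body and platform with a bacterial counterpart (Mrps5, Mrps6, Mrps11, Mrps12, Mrps15, Mrps16, Mrps17, Mrps18c and Mrps21) had a median of 0.23, with 8 of 9 above 0. Within the head, Mrps14 had 4285 units without and 5146 units with CSF1, a ratio of 0.26 on its probe set of highest signal and of -0.15 on its other measured one. The remaining small subunit genes not yet named, Mrps2, Mrps25 and Mrps34, lay between 0.09 and 0.23. The head list also takes in genes that occur only in mitochondria, Mrps31 (0.07), Mrps33 (0.10) and Mrps35 (-0.05), and the body list leaves such genes out. The head genes with a bacterial counterpart ran from -0.07 (Mrps7) to 0.39 (Mrps24). The medians of head and body are therefore not over like groups. The gap between them was not tested, and these groups were drawn up with the values known.

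Among large subunit genes, Mrpl9 had the highest ratio. Its signal was 790 units without and 1158 units with CSF1, 1.47-fold higher, and its 3 measured probe sets were all above 0, with a mean of 0.33 ± 0.20. Mrpl35 had 2625 and 3532 units, a ratio of 0.43. Its other probe sets were not above background on both arrays. Mrpl57, a small protein that occurs only in mitochondria, had 1958 and 2484 units, a ratio of 0.34.

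Mrpl20, whose bacterial counterpart is needed early in assembly of the large subunit, had 2524 units without and 3176 units with CSF1, a ratio of 0.33. Mrpl43 had 1675 and 2108 units, also at 0.33. Mrpl3, whose bacterial counterpart reaches towards the peptidyl transferase centre, where peptide bonds form, had 1501 and 1887 units, a ratio of 0.33, and its 2 measured probe sets gave 0.27 ± 0.08. Close below them were Mrpl37, Mrpl15, Mrpl38 and Mrpl4, all at 0.30.

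The lowest ratio of all 76 genes belonged to Mrpl33, with 1449 units without and 1174 units with CSF1, a ratio of -0.30, or 1.23-fold lower. Its other probe set was below background on both arrays. Mrpl41 had 2866 and 2504 units, a ratio of -0.20, but 2263 and 2590 units, a ratio of 0.19, on its other measured probe set, so that its direction depends on the probe set. Mrpl45, which anchors the ribosome to the inner mitochondrial membrane, had 1211 and 1104 units, at -0.13. Mrpl32, which is cut to its mature form by a protease of the inner membrane, had 1815 and 1661 units, also at -0.13. Mrpl39 had 3672 and 3568 units, at -0.04, and Mrpl24 had 4167 and 4091 units, at -0.03. Apart from Mrpl33, all of these lie within the pooled probe set SD of 0.

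By place in the large subunit, the stalk proteins that engage elongation factors (Mrpl10, Mrpl11, Mrpl12 and Mrpl54) were all above 0, with a median of 0.20, although the other 2 measured probe sets of Mrpl11 were at -0.03 and -0.27. Mrpl12, which also binds the mitochondrial RNA polymerase, had 2098 units without and 2280 units with CSF1, a ratio of 0.12. The proteins of the central protuberance (Mrpl18, Mrpl27, Mrpl38, Mrpl40, Mrpl46 and Mrpl48), where the subunits touch, were likewise all above 0, with a median of 0.19. Among them were Mrpl27, with 6480 and 6677 units, at 0.04, and Mrpl38, with 350 and 429 units, at 0.30. The proteins around the exit of the peptide tunnel (Mrpl17, Mrpl22, Mrpl23, Mrpl24, Mrpl32, Mrpl45 and Mrpl47) had a median of 0.14, with 4 of 7 above 0.

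Of the 6 large subunit genes below 0, 3 belong to that tunnel exit group, Mrpl24, Mrpl32 and Mrpl45, whereas its members Mrpl17 and Mrpl23 had ratios of 0.29 and 0.25. This grouping too was made with the values known, and 3 of 7 genes is a description only. Other large subunit genes with signals at either end of the range were Mrpl42 (4758 and 5413 units, 0.19), Mrpl51 (5285 and 5746 units, 0.12), Mrpl37 (355 and 439 units, 0.30) and Mrpl55 (672 and 785 units, 0.22). The large subunit genes not named here, such as Mrpl2, Mrpl13 and Mrpl58, were all above 0. Among these, Mrpl28 was at 0.05, and at -0.02 as the mean of its 3 measured probe sets. Another of its probe sets had nearly the same mean signal (1425.1 and 1179.5 units) and a ratio of -0.27. After quantile normalization the gene was at -0.29, close to that probe set, so its direction depends on which probe set represents it. Signals of different probe sets do not measure which gene has more RNA.

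Proteins with a counterpart in the bacterial ribosome and those that occur only in mitochondria were both mostly higher. The 45 genes with a bacterial counterpart had a median of 0.22, with 39 above 0, and the 31 mitochondrial ones a median of 0.12, with 27 above 0. In the large subunit alone the medians were 0.22 and 0.20. In the small subunit they were 0.23 over 16 genes and 0.10 over 13. These differences were not tested.

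A check of the shift within the arrays comes from the probe sets that were not chosen. The 76 genes had 156 probe sets, of which 115 were above background on both arrays. The 39 of these that did not represent their gene had a median log2 ratio of 0.17, and 25 of them, or 64.1%, were above 0. That share is lower than the 86.8% of the representing probe sets. Of the 25 genes with several measured probe sets, 14 had all of them on the same side of 0 and 11 did not. Neither count was made for the probe sets of all genes. The check is limited, since these probe sets read the same 2 RNA samples. The largest disagreements were those of Mrps23, whose 3 probe sets had an SD of 0.53, Mrpl1, at 0.34, Mrps5, at 0.31, and Mrps14, at 0.30. Mrpl1, a protein of the stalk beside the exit site for transfer RNA, was at 0.13 on its probe set of highest signal and at -0.35 on the other.

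Mrpl44, which has a fold of the ribonuclease III family, shows the opposite disagreement. The probe set of highest signal had 1914 units without and 1952 units with CSF1, a ratio of 0.03, whereas the mean over its 4 measured probe sets was 0.29 ± 0.18. The 35 probe sets below background on both arrays had ratios from -2.75 to 2.98 with a median of -0.12, so they carry no usable value. Of the 76 representing probe sets, 30 have names that mark possible sharing with other transcripts; their median was 0.19, and that of the other 46 was 0.20.

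The medians were alike for dim and bright genes. Split by mean signal, the dimmest 26 genes had a median of 0.21, the middle 25 a median of 0.21 and the brightest 25 a median of 0.19. After quantile normalization the median of the 76 genes was 0.17 above that of all measured genes, after a loess correction for signal it was 0.18 above, and with centring on the spiked-in hybridisation controls 0.21 above. The 18 spike probe sets themselves had a mean ratio of -0.29 ± 0.13 (SD between probe sets). With centring on them, the median of all measured genes stood at 0.28 and that of the 76 genes at 0.50, so that higher here means higher relative to other genes.

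The genes of the cytosolic ribosome had ratios mostly below 0 in the deposited scaling. The 48 measured cytosolic ribosomal protein genes had a median of -0.13, with 7 above 0 and 41 below. Most of them were among the brightest probe sets of the array, and the 290 measured genes within the middle range of their signals had a median of -0.10. After the loess correction the cytosolic list stood 0.01 below the median of all genes, and after quantile normalization 0.00 below. Their values below 0 therefore depend on the scaling, while the mitochondrial genes stayed above the median of all genes under both. Rps27, with 356 units without and 185 units with CSF1 (-0.94), Rpl39l, a paralogue of a cytosolic large subunit protein (0.59), and the related Rpl7l1 (0.31) were the members farthest from 0. The difference between the cytosolic and the mitochondrial genes was not tested.

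**Figure D2:**
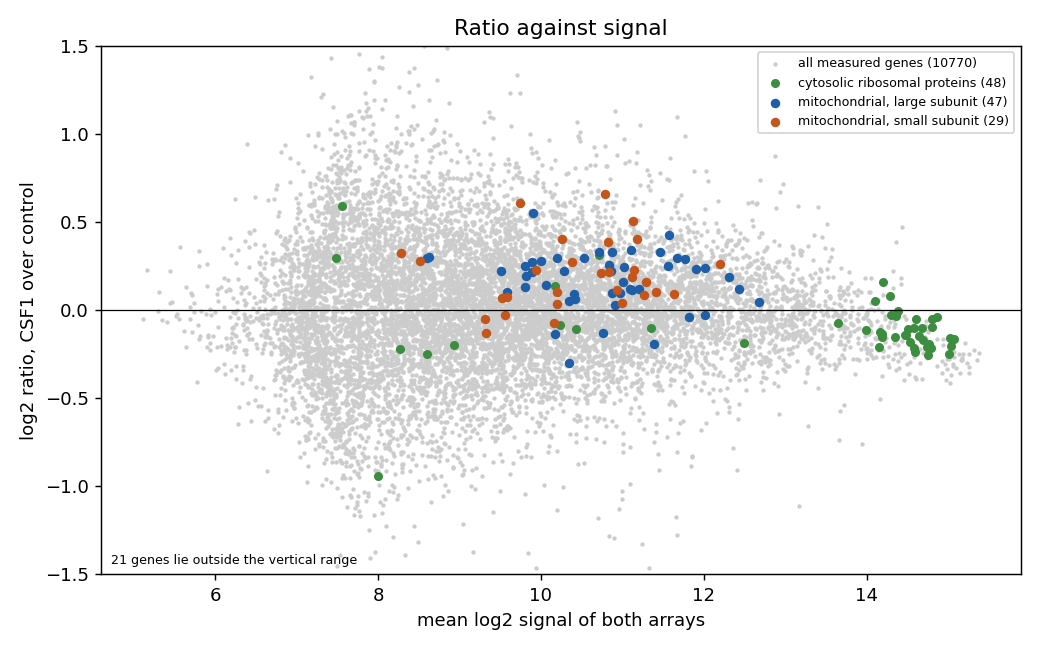
Log2 ratio, CSF1 over control (vertical axis) against mean log2 signal of both arrays (horizontal axis) for all 10770 measured genes in grey, with 21 outside the vertical range. The mitochondrial large subunit (blue) and small subunit (orange) genes lie mostly above 0 in the middle of the signal range, and the cytosolic ribosomal protein genes (green) mostly below 0 at its bright end.

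Genes that make the cytosolic ribosome, rather than form part of it, had a median of 0.21 over 36 measured, with 26 above 0. Of them 3 were at least 1.5-fold higher and none 1.5-fold lower, against 5.66% and 5.08% of all measured genes. The 3 were Rrp9, which binds a small nucleolar RNA and was at background on the control array (at least 2.22-fold higher), Tcof1, a nucleolar factor of ribosomal DNA transcription (1.85-fold), and Dkc1, the pseudouridine synthase of nucleolar particles (1.55-fold). The other probe sets of Dkc1 were at 0.37 and -0.58. Of those of Tcof1, 1 was at 0.02. The other was lower with CSF1, at 239 units without and 140 units with it, the latter not above background. The spread of the 36 genes, with an SD of 0.35, was wider than that of the mitochondrial ribosomal protein genes.

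Mitochondrial ribosomal proteins without the Mrp name were higher too, while other parts of the mitochondrial translation machinery, given in the next paragraphs, were shifted less evenly. Of 5 mitochondrial ribosomal proteins that do not carry the Mrp name, 4 were on the array and all 4 were above 0, with a median of 0.23. Gadd45gip1, a protein near the tunnel exit, had 760 units without and 1066 units with CSF1 (0.49), Ptcd3, a pentatricopeptide repeat protein of the small subunit, had 524 and 687 units (0.39), and Dap3, a GTP-binding protein of its head, had 2402 and 2507 units (0.06).

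The 10 measured translation factors of mitochondria had a median of 0.14, with 7 above 0 and none past 1.5-fold. Mtfmt, which formylates the initiator methionine, was at 0.52, and Mrrf, the ribosome recycling factor, at 0.34. Guf1, an elongation factor-like GTPase, was at background with CSF1, so at least 1.41-fold lower. The 24 measured genes of mitoribosome assembly and ribosomal RNA modification had a median of 0.07, with 16 above 0, 1 past 1.5-fold higher and 2 past it lower, against 5.66% and 5.08% of all measured genes. The helicase gene Ddx28 was 1.70-fold higher, and Ngrn and the methyltransferase gene Mettl15 were 1.70-fold and 1.53-fold lower. On probe sets not marked as shared, the median of the assembly genes was 0.25.

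Mitochondrial tRNA synthetase genes had a median of 0.07 over 16 measured, with 9 above 0, none past 1.5-fold higher and 2 past 1.5-fold lower. Of all measured genes, 5.66% were past 1.5-fold higher and 5.08% past it lower. Nars2, for asparagine, was 1.78-fold lower, Sars2, for serine, was at background with CSF1, so at least 1.50-fold lower, and Hars2, for histidine, had a ratio of -0.55. Genes that transcribe, process and maintain mitochondrial DNA and its RNA had a median of 0.11 over 22 measured, with 14 above 0. Prorp, the nuclease that trims transfer RNA, was at background on the control array and at least 2.00-fold higher, Primpol was at 0.51, and Mterf1a, a transcription termination factor, was at -0.65.

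Protein import into mitochondria, the route by which ribosomal proteins arrive, had a median of 0.12 over 25 measured genes, with 18 above 0 and none past 1.5-fold. Pam16, of the import motor, had 980 units without and 1435 units with CSF1 (0.55), Timm50, a receptor of the inner membrane channel, had 639 and 923 units (0.53), and Timm9, a chaperone between the membranes, was at 0.43. Among 11 measured regulators of mitochondrial biogenesis, 6 were above 0, with a median of 0.11. In this list 1 gene was past 1.5-fold higher, where 5.66% of all measured genes were. That median was -0.0057 with no background level and -0.0728 on probe sets not marked as shared, so its direction depends on these choices. The lysosomal and metabolic transcription factor Tfe3 was that gene, at 0.68, with Pprc1, a coactivator of the PGC-1 family, at 0.44 and Myc at 0.40.

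The protein complexes and enzymes that work beside the mitochondrial ribosome had medians near 0. The 71 measured nuclear genes for respiratory chain and ATP synthase subunits had a median of 0.01, with 39 above 0 and none past 1.5-fold in either direction, and the 14 measured citrate cycle genes had a median of -0.02, with 6 above 0. The median of the first list was 0.06 above that of all genes after the loess correction and 0.05 above after quantile normalization. In that list Ndufs8 was at 0.51, Ndufb8 at 0.34 and Ndufb3 at -0.33, all subunits of complex I. In the second Sdhb was at -0.23, Sucla2 at 0.21 and Dlst at 0.16. The difference between these lists and the mitochondrial ribosomal genes was not tested.

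**Figure D3:**
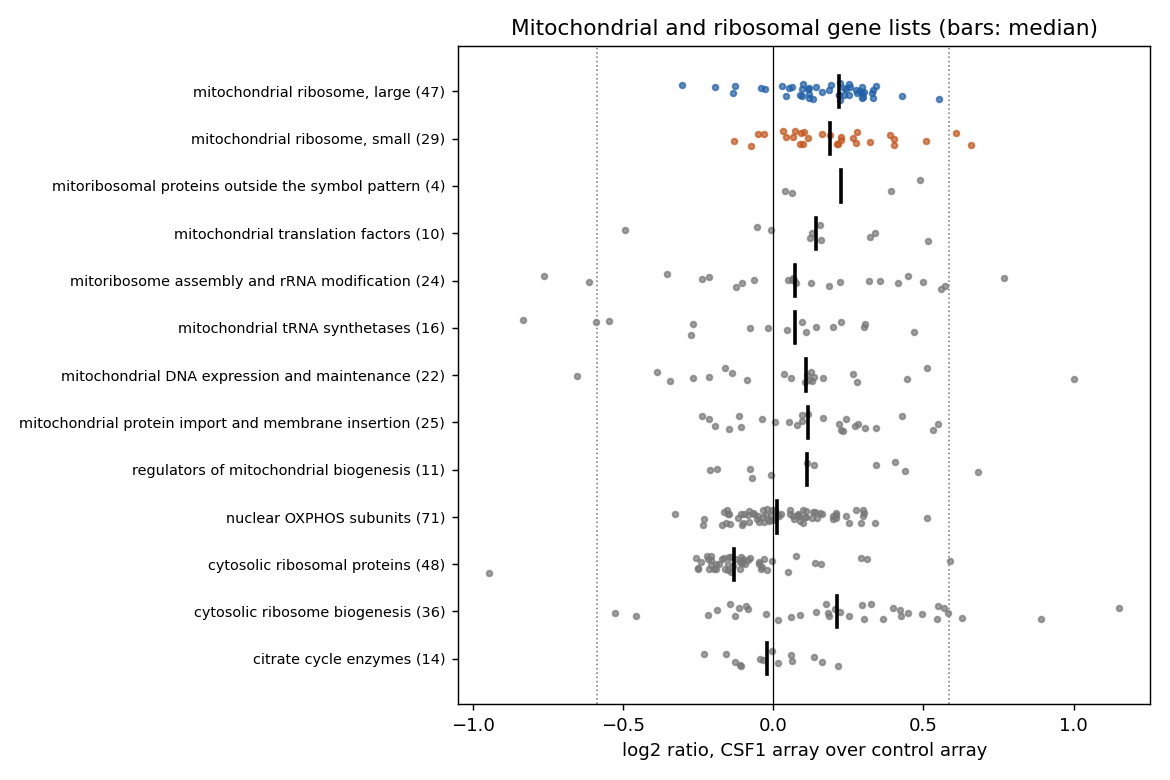
Log2 ratio, CSF1 over control (horizontal axis) for every measured gene of each list, with the number of genes in brackets, black bars at the medians and dotted lines at 1.5-fold. The mitochondrial ribosomal genes lie around medians of 0.22 and 0.19, the respiratory chain subunits around 0.01 and the cytosolic ribosomal proteins around -0.13.

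Promoters of these genes often carried the ETS sequence shown above. In the 300-base windows from 250 before to 50 after the start, CCGGAAG or its reverse complement was found for 25 of 67 genes with an entry, or 37.3%. It was found for 12.9% of 17491 protein-coding genes and for 20.7% of the 8587 of them that were measured. Of its 29 matches, 17 lay within the last 100 bases before the start and 9 after it. The 25 genes with a match had a median ratio of 0.22, and those without 0.14, a difference that was not tested. Most of the other sequences searched also had a higher median with a match, as given below.

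The NRF1 sequence was found for 17.9% of the genes with an entry for 7.17% of all protein-coding genes and for 12.0% of the measured ones. AAGATGG, the core of the YY1 sequence, was found for 19.4%, 7.18% and 8.62%. The E-box CACGTG, which Myc and Tfe3 can bind, was found for 5 of 67 genes (7.46%, against 8.91% of all and 12.0% of measured genes), and TATAAA, the TATA box, also for 5 (7.46%, against 14.8% of all and 8.69% of measured genes). Both strands were searched for each sequence, and the matches of different sequences may overlap. Genes with an NRF1 match had a median ratio of 0.11 and those without 0.19. With and without a match, the medians were 0.22 and 0.16 for YY1, 0.24 and 0.17 for the E-box, and 0.22 and 0.17 for the TATA box. None of these differences was tested. These matches describe the letters of the windows and not the binding of a factor.

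Many of the genes share their upstream region with a neighbour transcribed in the other direction. In RefSeq's annotation, 23 of 67 genes, or 34.3%, had the start of another protein-coding gene on the opposite strand within 1000 bases upstream, compared with 8.48% of 17491 genes and 13.3% of the measured ones. The median distance between such starts was 141 bases. Of these 23 genes, 17 had a neighbour that was measured. The 17 ribosomal genes had a median ratio of 0.16 and their neighbours a median of -0.11, with 7 neighbours above 0. Over all measured genes with such a measured neighbour, the neighbours had a median of 0.04, with 54.8% above 0. Of the 17 neighbours, 6 were not above background on both arrays, so that their values are bounds. All of these but Hira were below 0. Among the neighbours above background on both arrays, the middle value was that of Tmem63b, at 0.08. The sign of the neighbour median therefore depends on the bounds.

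In 7 of the 17 cases gene and neighbour were on the same side of 0, and in 10 they were not. Many of the opposite cases rest on a neighbour not above background on both arrays, those of Mrps18b, Mrpl50, Mrps12, Mrpl21 and Mrpl51. On the same side only Mrpl40 had such a neighbour. These counts were not set against those of all measured pairs, so they do not show that gene and neighbour tend to differ. Mrpl46 and Mrps11, a large and a small subunit gene whose starts lie 42 bases apart, had ratios of 0.22 and -0.13; this pair counts from both sides, so that 16 pairs are distinct. Mrps12 was at 0.27 and its neighbour Sars2 was lower, at a bound of -0.59. Mrps18b was at 0.66 and its neighbour Ppp1r10, a phosphatase regulator whose start lies 756 bases away and which was not above background on both arrays, at a bound of -0.29. Hira, a histone chaperone gene beside Mrpl40 (0.25), was at background on the control array and had a ratio of at least 1.08.

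**Figure D4:**
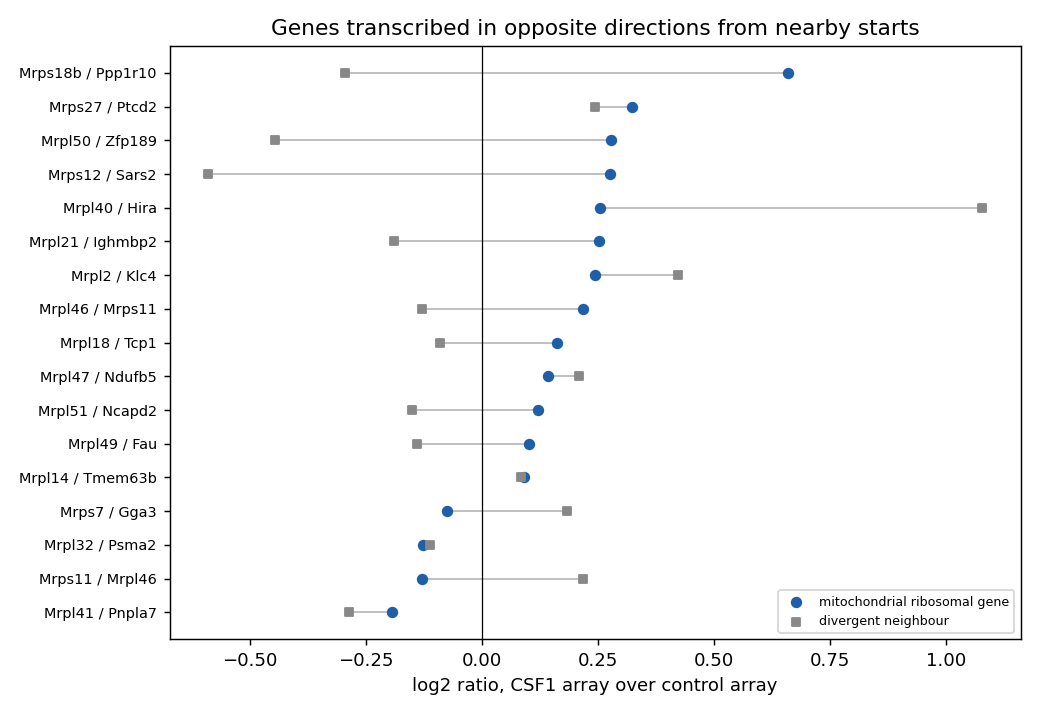
Log2 ratio, CSF1 over control (horizontal axis) for 17 mitochondrial ribosomal protein genes (circles) and for the measured neighbour that starts within 1000 bases upstream on the opposite strand (squares), 1 gene a row. Gene and neighbour lie on opposite sides of 0 in 10 rows, and the Mrpl46 and Mrps11 pair appears in 2 of them. In 6 of the 17 rows the neighbour was not above background on both arrays.

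Markers of other cells differed between the arrays together with these genes. All 6 fibroblast markers (Col1a1, Col1a2, Col3a1, Dcn, Pdgfra and Lum) were above background on both arrays, with signals that summed to 51036 units without and 64451 units with CSF1 and a median ratio of 0.31. All 8 macrophage markers were above background too, with summed signals of 142450 and 116730 units and a median ratio of -0.28. The largest falls were those of Cd68 and Lyz2, while Fcgr1 was nearly equal on the arrays and Cd14 was higher with CSF1. Several of the 8 lie at the bright end of the signal range. There the values below 0 of the cytosolic ribosomal protein genes depended on the scaling, and the markers are given in the deposited scaling only. The 7 markers of T and NK cells on the array summed to 3131 and 1797 units, and the 4 measured ones had a median ratio of -0.48. Most of the fall in that sum came from a single marker, Gzma. Cd3e, which defines T cells, was not measured, but Cd3g of the same list was above background on both arrays, with nearly equal signals. Lists for other cells, such as neutrophils, mast cells and dendritic cells, were also drawn up. Most markers in each of them were not above background on both arrays. Of those that were, S100a8 of neutrophils was higher with CSF1 and Cpa3 of mast cells lower. The part of these cells in the result was not tested, and in bulk RNA a change in the share of cells cannot be told apart from a change in RNA per cell. The ratio of 3′ to 5′ signal, a sign of RNA integrity, was 1.35 and 1.38 for Actb but 1.03 and 1.40 for Gapdh on the control and CSF1 arrays, and its part in the result was not tested either.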

How the data were processed

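The deposited values are probe set intensity values on a linear scale from 2 arrays, and the authors analysed them in GeneSpring 6.2, according to the design text. How probes were summarized: not given in the sources used here. Both arrays had the same trimmed mean of 500.0 units (2% cut from each end). Of 45101 probe sets, 34958 had 1 gene symbol, 932 several and 9211 none, per the platform annotation; all 76 symbols matched RefSeq by Entrez ID.

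Values were moved to log2 without further scaling, and each gene took its probe set of highest mean log2 signal. A background level was set from 84 genes specific to other tissues, as the 90th percentile over their 133 probe sets (94 genes were listed; 6 of these genes were above it on both arrays), and values below it were raised to it, which makes such ratios bounds. With 1 array a group no p-value was computed. Named genes were the 6 highest and lowest of each subunit, the 3 brightest and dimmest, the 5 with the largest probe set SD, those past 1.5-fold and the 3 farthest from 0 in each list; others, named for their place in the ribosome or their neighbour, were chosen after their values were seen. The members and lists were chosen with earlier results of these data known. The procedure was tested on simulated data. Promoters came from RefSeq (GRCm38.p6). Alternatives were 4 scalings, 3 background levels, 3 choices of probe set, a 2-fold threshold, subunits by structure, and members above background on both arrays. Calculations ran in Python 3.11.15 with pandas 2.3.3, statsmodels 0.14.6 (loess), numpy 2.4.6 and scipy 1.17.1, and plots in matplotlib 3.10.9.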

Additional observations from a re-analysis of the deposited data

How the results depend on the processing

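The median of the 76 genes stayed above that of all measured genes under each other scaling, background level and choice of probe set, and with only genes above background on both arrays, by 0.11 (mean of all probe sets) to 0.21 (spike centring). The number above 0 was 63 with the mean of all probe sets, which takes in probe sets below background on both arrays at a ratio of 0. It was also 63 with the mean of measured probe sets, an alternative added after the data were seen. The count at least 1.5-fold higher was 2 in the main setting, 18 with spike centring (where 17.6% of all measured genes were past it), 1 with the mean of all or of measured probe sets, and 0 with probe sets not marked as shared, which leave 58 genes, or with a 2-fold threshold (0.873% of all measured genes). The large minus small difference of 0.03 turned to -0.02 on probe sets not marked as shared and was 0.12 with the mean of measured probe sets (0.22 and 0.10).

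Spike centring raised all medians: to 0.50 for all 76 genes, 0.51 for the large and 0.48 for the small subunit, 0.52 for ribosomal proteins without the Mrp name, 0.44 for translation factors, 0.37 for assembly genes, 0.37 for tRNA synthetases, 0.40 for mitochondrial DNA expression, 0.41 for import, 0.41 for regulators of biogenesis, 0.31 for respiratory chain subunits, 0.16 for cytosolic ribosomal proteins, 0.51 for cytosolic ribosome biogenesis and 0.28 for the citrate cycle. The cytosolic ribosomal protein median was 0.0102 after quantile normalization and -0.0012 after loess. The median of biogenesis regulators was -0.0057 with no background level and -0.0728 on probe sets not marked as shared, where assembly genes had 0.25. The cause of these moves was not tested. On those probe sets Mrpl1 was at -0.35 and Mrpl35 at a bound of -0.24 (not above background with CSF1), against main values of 0.13 and 0.43. No paired analysis was possible because each group holds 1 array.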
